A study of Mus musculus with 15 samples.

Results

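RNA from circulating extracellular vesicles (EVs) was examined here for 69 mouse genes that had at least 1 read in each of the 15 libraries of the series. A gene was a member when its raw count was above 0 in every library. Several families were then left out by the start of their symbols, which removed mitochondrial, hemoglobin, ribosomal protein, translation factor, proteasome and respiratory chain genes. It also removed Rab GTPases, ubiquitin-conjugating enzymes, histocompatibility, histone, splicing and hnRNP, heat shock, actin, myosin light chain and Ywha genes. Symbols starting with Cd, Gp, Prdx, Gpx, Tmsb, Ctla2 and Ft and a set of single platelet, erythroid and housekeeping genes were left out as well, so the absence of these families below comes from the rule. Of 43472 gene symbols, 13281 had a read in at least 1 library, 169 were counted in every library, and 69 of those remained after the exclusion by name. The counts chose the members, so detection, levels and spread are given below as descriptions without a test. The conditions were not used in the choice, so the comparisons between conditions were tested on the whole gene table. Members have no count of 0 by the rule, while other tested genes can. Shares and medians over all tested genes, given beside the members below, therefore come from unlike genes. They do not measure how unusual the members are.

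EVs were taken from the blood of WT mice (C57BL/6, 3 libraries), dystrophic mice (Sgcb-null, 6 libraries) and hypertrophic mice (6 libraries). The source is plasma in the paper and serum in the labels. All mice were 3 to 6 months old, and the EVs of 2 to 3 mice were pooled for each sample, collected by ultracentrifugation, and their RNA was amplified before library preparation. The hypertrophic genotype of these libraries is Magic-F1 in the sample labels and Mstn-null in the paper's methods, so the condition is named here and not the genotype. Sgcb had 0 reads in the WT-derived and dystrophic-derived libraries and 695 reads in hypertrophic replicate 3, and Mstn had 0 reads throughout, so neither gene tells the dystrophic-derived from the WT-derived libraries. In 6 libraries the number in the sample title is not the number carried by its counts, each such number belonging by title to the other condition. These are replicates 4, 5 and 6 of the dystrophic and replicates 1, 2 and 3 of the hypertrophic condition, the library with the Sgcb reads among them. With the conditions exchanged, that library would be a Sgcb-null library with 695 Sgcb reads. Counts per gene do not tell where on Sgcb these reads fall, and what they mean for the conditions was not tested. Conditions follow the labels here. No label states that libraries of a condition come from different mice, so p-values measure the spread between these libraries, which may be technical. With 2 to 3 mice pooled per sample, 6 separate pools would need more mice of a model than the paper lists. WT replicate 1 was the shallowest library, with 27227 reads counted on genes, and dystrophic replicate 6 the deepest, with 32563362. The 4 shallowest (WT replicates 1 and 3, hypertrophic replicates 4 and 5) had at most 601506 reads, and the 11 others at least 1170610.

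EVs are membrane particles released by most cells, and in blood a large share of them is known to come from platelets and other blood cells. Platelets have no nucleus and carry RNA inherited from megakaryocytes, which is rich in messages for cytoskeletal, adhesion and signalling proteins. A gene that is counted in every small and amplified RNA sample is often one of the more abundant messages in that RNA. The rule of 1 read also admits genes with few reads, such as Epas1 and Nsd1, at medians of 4 and 6 reads. It leaves out some genes at high levels, such as Pabpc1. Membership alone therefore does not measure abundance. In whole EV preparations, fewer vesicles from a source and less RNA per vesicle cannot be told apart.

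The blood origin, on which labels and paper differ between serum and plasma, was compared with marker genes. Of the 7 EV markers, Cd9 was counted in every library. Of the 9 platelet markers, Pf4, Ppbp, Gp9, Gng11 and Nrgn were, and the summed platelet level was 31795 to 54835 CPM (counts per 1000000 reads, here by total reads) in WT-derived, 14192 to 39171 in dystrophic-derived and 25017 to 51348 in hypertrophic-derived libraries. Of the 7 erythroid markers 6 were counted everywhere, and their sum was 23013 to 88185 CPM, 47356 to 157171 CPM and 30685 to 88793 CPM in the same order. The 8 leukocyte markers, of which Ptprc and Lyz2 are members, summed to 1180 to 5179 CPM over the 15 libraries. None of the 9 skeletal muscle markers was counted in every library, Myh4 had no read at all, and their sum was at most 338 CPM. None of the 6 liver markers was counted in every library, and their sum had a median of 6.65 CPM in WT-derived, 30.7 CPM in dystrophic-derived and 478 CPM in hypertrophic-derived libraries.

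By function, the members were 16 genes of the cytoskeleton, 10 platelet receptors and signalling genes, 10 genes of transcription, growth and survival, 7 leukocyte genes, 7 metabolic enzymes, 7 genes of membranes, folding and trafficking, 6 genes of translation and RNA binding, and 6 noncoding or uncharacterised transcripts. In GENCODE M21 (GRCm38/mm10), 67 of the 69 symbols were found, G6b as Mpig6b and Gbas as Nipsnap2. Yam1 and RP23-131N18.1 were not found and have no position or length here. The 67 genes lie on 18 chromosomes and 64 are protein coding. Their median exon length was 3652 bases, against 4437 bases for the 6580 other tested genes with an annotation, of which 98.5% are protein coding. For 36 members no 50-base stretch of their transcripts occurs in another annotated gene. For 8 members over 15% of such stretches do, most of all in Fau (30%, a copy named Gm9843), Gm10524 (26.9%), Odc1 (24.3%), Mmd (19.1%), Tpt1 (18.7%, processed copies) and March2 (18.2%, the overlapping gene Hnrnpm), so the counts of these genes are uncertain to that extent. Rac1, Tuba4a, Gnas and 1110032A03Rik overlap antisense genes, and the sources used here do not say whether the counting used strand.

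Together the members took 9.60% (95% Wilson interval 9.26 to 9.96), 7.53% (7.51 to 7.55) and 5.89% (5.84 to 5.95) of the reads in WT replicates 1, 2 and 3, intervals that cover counting error only. The mean was 7.67% ± 1.86 (SD, n = 3) in WT-derived, 7.25% ± 2.17 (n = 6, 5.01 to 10.9) in dystrophic-derived and 8.98% ± 1.52 (n = 6, 6.40 to 10.5) in hypertrophic-derived libraries. These ranges overlap for each pair of conditions. The 5 most counted members held 29.6% of the member reads in WT replicate 1 and 58.1% in dystrophic replicate 5, the lowest and highest such shares.

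**Figure D1:**
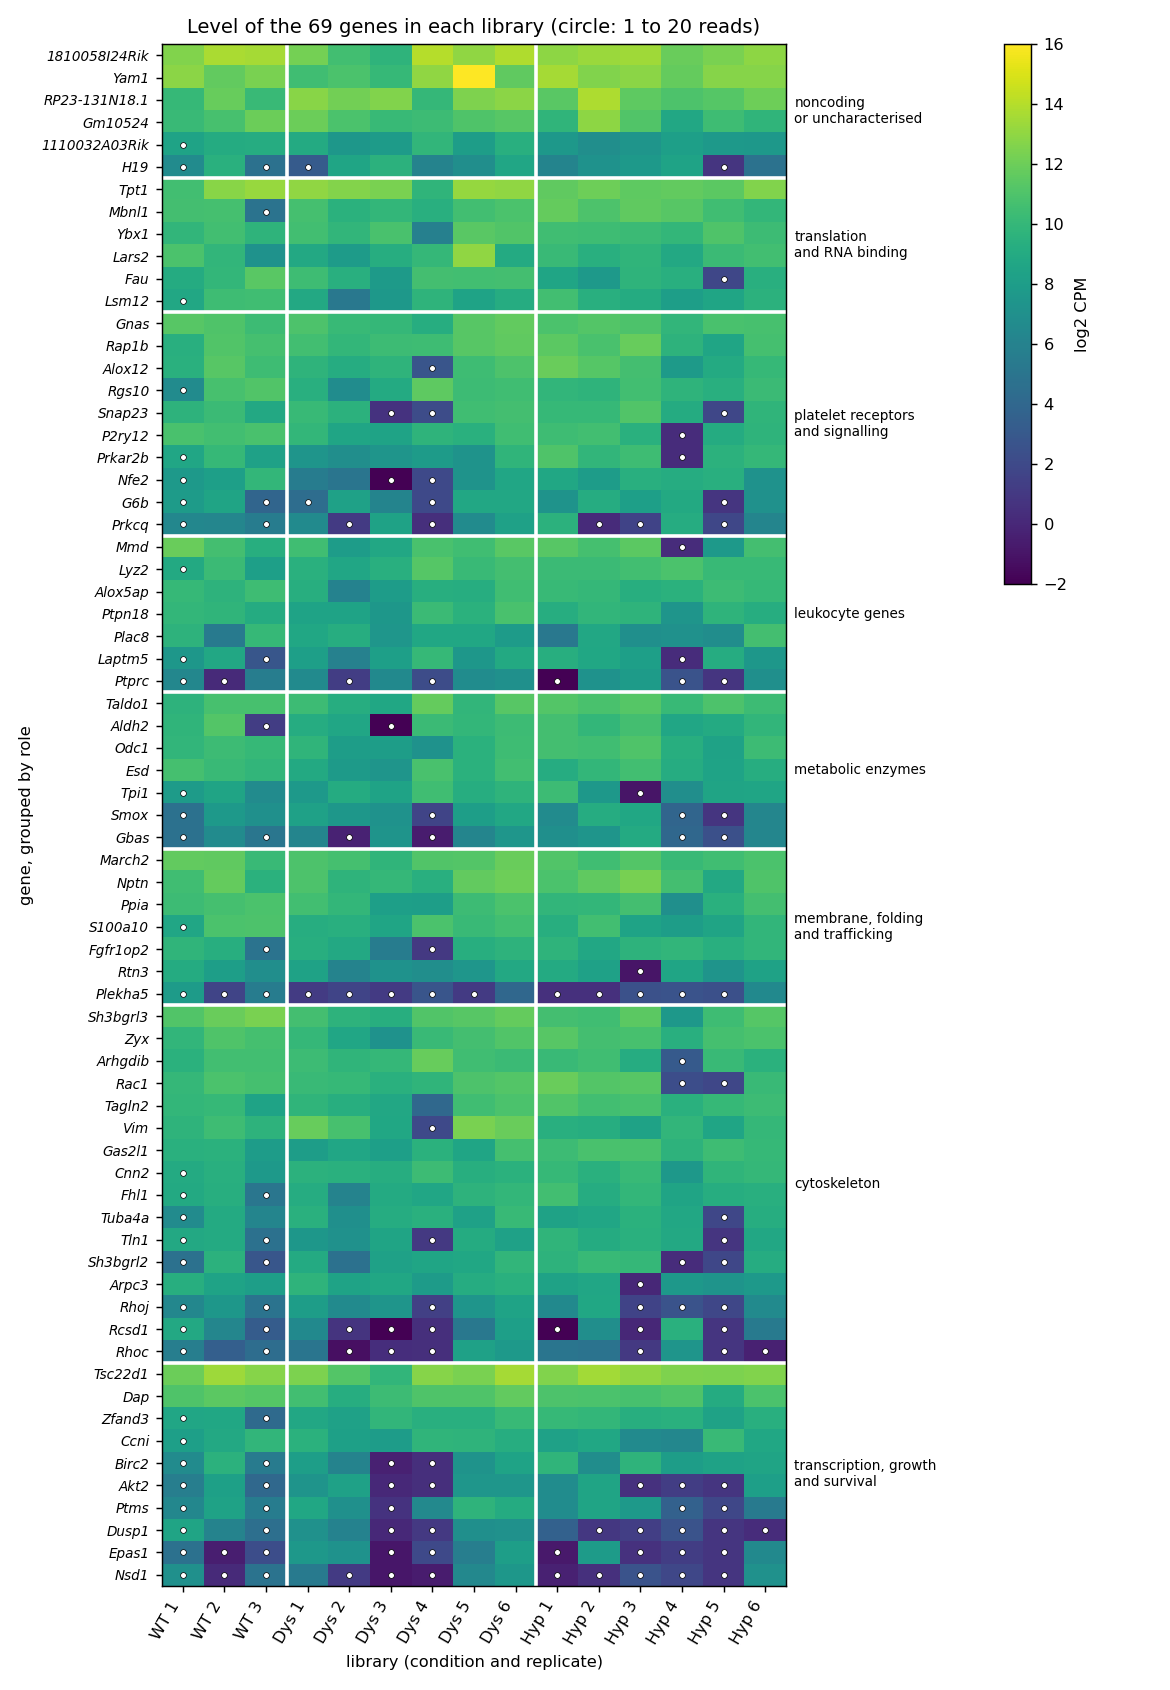
Level of the 69 genes (rows, grouped by role) in the 15 libraries (columns), as log2 CPM with TMM-scaled library sizes; a white circle marks 1 to 20 reads. Yellow and green rows such as Tsc22d1 and Tpt1 are high in every library, whereas genes such as Aldh2 and Snap23 are high in most libraries and near the floor in a few.

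Read counts of the members fell into 2 ranges. In the 14 libraries other than WT replicate 1 there are 966 pairs of a member and a library. Of these, 130 pairs (13.5%) had 1 to 20 reads, only 8 had 21 to 50 reads, and 828 had more than 50 reads, among them 527 with more than 1000. The limit of 20 reads was set after this gap was seen. With limits of 5, 10 and 50 reads the low pairs were 82, 112 and 138. For 76 of the 130 low pairs (58.5%) the median level of the same gene in the other libraries predicted more than 50 reads at that depth. The low pairs had a median of 4 reads, and the median prediction was 78.3 reads. Among the other 100 genes counted in every library, those left out by name, 21 of 1400 such pairs (1.5%) were low.

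**Figure D2:**
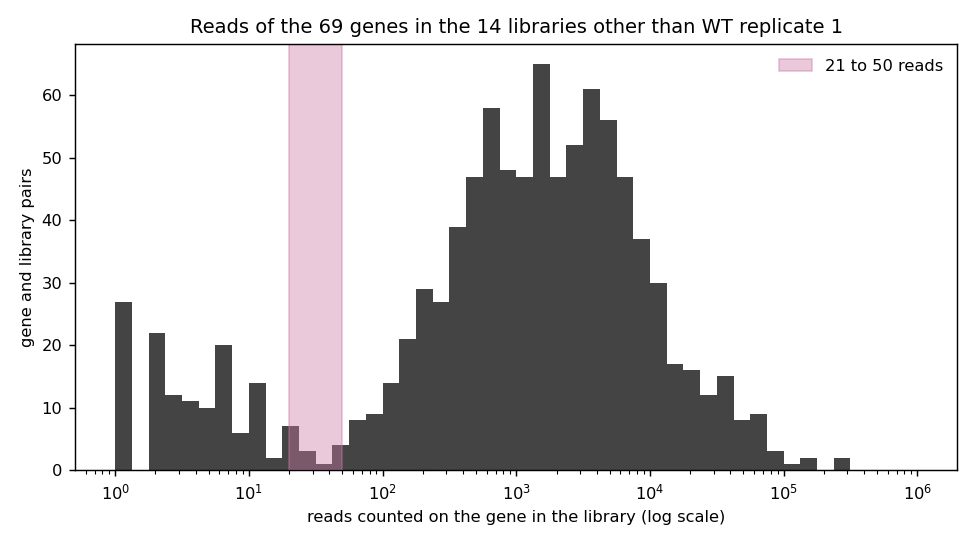
Histogram of the reads counted on a member in a library (x axis, log scale) over the 966 gene and library pairs without WT replicate 1. The pink band marks 21 to 50 reads, which holds 8 pairs between a lower group of 130 pairs and an upper group of 828.

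By this measure 31 members stayed above 20 reads in all 14 libraries. Another 14 were at or below 20 reads in 1 library, 13 in 2 to 4 and 11 in 5 or more. The steady members included 5 of the 6 noncoding or uncharacterised transcripts, 4 of the 6 translation and RNA binding genes, 4 of the 7 leukocyte genes and 4 of the 7 membrane genes. They also included 3 of the 10 platelet genes, 3 of the 10 transcription and growth genes, 3 of the 7 metabolic enzymes and 5 of the 16 cytoskeletal genes. In all 15 libraries, 48 members had at least 2 reads, 33 at least 10, 25 at least 20 and 4 at least 100.

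Low counts were spread unevenly over libraries. Dystrophic replicate 6, the deepest library, had none of the 69 genes at 20 reads or fewer, and WT replicate 1, the shallowest, had 32. Depth did not order the rest fully: dystrophic replicate 4, with 1608699 reads, had 20 low members, while dystrophic replicate 1, with 1170610 reads, had 3. By condition, low pairs were 26 of 138 in WT-derived (without replicate 1), 43 of 414 in dystrophic-derived and 61 of 414 in hypertrophic-derived libraries.

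**Figure D3:**
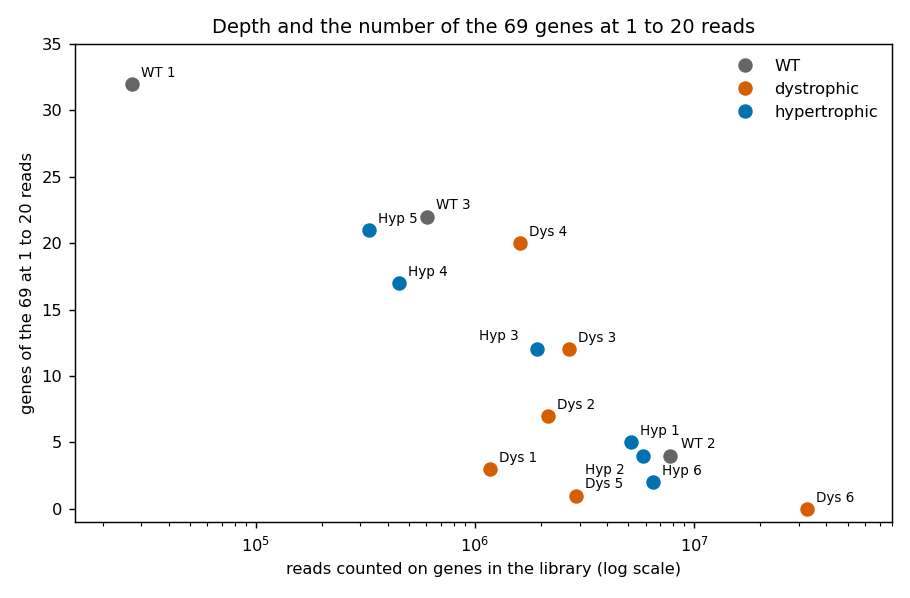
Number of the 69 genes at 1 to 20 reads (y axis) against the reads counted on genes (x axis, log scale) for each library, coloured by condition. The count runs from 0 in dystrophic replicate 6 to 32 in WT replicate 1, with dystrophic replicate 4 at 20 and dystrophic replicate 1 at 3 at similar depth.

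At the edge of the rule, 21 members had a lowest count of 1 read. Epas1, Nsd1, Rhoc, Dusp1 and Rcsd1 were those with the smallest median counts (4, 6, 9, 10 and 18 reads). Just outside the rule were 105 genes that pass the exclusion by name and were at 0 in exactly 1 library, 43 of them in hypertrophic replicate 5, 26 in WT replicate 1, 14 in dystrophic replicate 4 and 13 in hypertrophic replicate 4. The 5 with the highest median level were Gm12840 (1913 CPM by total reads, 0 in dystrophic replicate 4), Clec1b (1124, 0 in hypertrophic replicate 4), Pabpc1 (1121, 0 in WT replicate 1), Creg1 (1073) and Max (955), the last 2 at 0 in hypertrophic replicate 5. A count of 0 allows up to 3 reads, which is 110 CPM in WT replicate 1 and 0.0921 CPM in dystrophic replicate 6.

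Levels below are CPM over the tested genes with library sizes scaled by TMM (trimmed mean of M values), in the order of WT replicates 1, 2 and 3, then as lowest, median and highest of the 6 libraries of each other condition. Between genes, only CPM per kb of exon are compared. On that scale the highest medians over the 15 libraries were 2886 for 1810058I24Rik, 2650 for Sh3bgrl3, 2261 for Tpt1, 1056 for Dap and 935 for Gm10524.

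Among the noncoding or uncharacterised transcripts, 1810058I24Rik, annotated as a lincRNA at chr6:35252654-35263496, had a median of 8033 CPM over the 15 libraries. It had 6056, 13510 and 12039 CPM in WT-derived libraries, 837, 6639 and 16621 in dystrophic-derived and 3818, 8015 and 10999 in hypertrophic-derived libraries. The 3 conditions overlap, and the dystrophic-derived libraries hold both the lowest and the highest value. Yam1, a symbol given to a long noncoding RNA described in muscle cells, had 7655, 3340 and 5408 CPM in WT-derived, 1080, 2527 and 66450 in dystrophic-derived and 3487, 6861 and 12315 in hypertrophic-derived libraries. The 66450 CPM of dystrophic replicate 5 stands far above the other 14 libraries. RP23-131N18.1, named for a genomic clone, had 1049, 3588 and 1152 CPM in WT-derived, 1025, 5994 and 7329 in dystrophic-derived and 1986, 2805 and 14103 in hypertrophic-derived libraries. All of its dystrophic-derived libraries but replicate 4 lie above the WT-derived ones. Gm10524, a transcript whose class in the annotation is still provisional, had 1180, 1769 and 4016 CPM, then 1139, 1995 and 4035 CPM and 441, 1144 and 7885 CPM. 1110032A03Rik, an uncharacterised protein gene, had 341, 550 and 557 CPM in WT-derived, 189, 390 and 924 in dystrophic-derived and 121, 191 and 293 in hypertrophic-derived libraries. H19, the imprinted growth-linked RNA, had a median of 119 CPM and was low in 3 of the 14 libraries. The list of nuclear-retained and small-RNA host genes, chosen for this report, had 5 other tested genes, none of which passed the edgeR test in any comparison. Over all 6887 tested genes edgeR called 1 for dystrophic against WT, 2 for hypertrophic against WT and 1 for hypertrophic against dystrophic. The lack of calls in this list and those below therefore does not show that their genes are unchanged.

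Among the genes of translation and RNA binding, Tpt1 (translationally controlled tumour protein, chr14:75845093-75848525) had 1468, 7238 and 9629 CPM in WT-derived, 868, 7366 and 9110 in dystrophic-derived and 2815, 3182 and 6017 in hypertrophic-derived libraries. Its lowest value, in dystrophic replicate 4, is below all other libraries. Fau, a ribosomal protein made as a ubiquitin-like fusion (chr19:6057844-6059524), had 551, 982 and 2685 CPM, then 229, 1404 and 1601 CPM and 3.50, 516 and 837 CPM. The 3.50 CPM of hypertrophic replicate 5 rests on 2 reads. Lars2, the mitochondrial leucyl-tRNA synthetase, was also highest in dystrophic replicate 5, at 8109 CPM against a median of 882 CPM. Mbnl1, a splicing regulator, Ybx1, an RNA-binding cold shock protein, and Lsm12 had medians of 1599, 1343 and 541 CPM. The ubiquitin list had 18 other tested genes and the list of nascent-chain and translation factors 11, and none passed the edgeR test in any comparison.

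Among the platelet receptors and signalling genes, Gnas, the stimulatory G protein alpha subunit (chr2:174284320-174346744), was one of the steadiest members. It had 2595, 2142 and 1272 CPM in WT-derived, 582, 1592 and 3195 in dystrophic-derived and 909, 1877 and 2319 in hypertrophic-derived libraries. Its highest library was 5.49-fold above its lowest. P2ry12, the platelet ADP receptor (chr3:59216272-59262871), had 1835, 1520 and 1812 CPM in WT-derived, 351, 763 and 1441 in dystrophic-derived and 1.22, 747 and 1498 in hypertrophic-derived libraries. On this scale all 3 WT-derived libraries lie above the 12 others, narrowly, at 1520 CPM or more against at most 1498. Hypertrophic replicate 4 holds 1 read. Prkar2b, a regulatory subunit of protein kinase A, had 393, 1042 and 316 CPM, then 118, 166 and 884 CPM and 1.22, 971 and 2065 CPM. It is at 770 CPM or more in 5 of 6 hypertrophic-derived libraries and 1 of 6 dystrophic-derived ones. Nfe2, the transcription factor of megakaryocyte maturation, had 210, 281 and 951 CPM in WT-derived, 0.262, 39.6 and 409 in dystrophic-derived and 143, 498 and 667 in hypertrophic-derived libraries. Its 2 lowest libraries, dystrophic replicates 3 and 4, hold 1 and 6 reads.

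Snap23, a SNARE protein of granule release, had 813, 1220 and 471 CPM in WT-derived, 1.57, 943 and 1598 in dystrophic-derived and 3.50, 982 and 2169 in hypertrophic-derived libraries. It was near the floor in dystrophic replicates 3 and 4 and hypertrophic replicate 5, and at 471 CPM or more in the 12 others. The integrin activator Rap1b had a median of 1615 CPM, the 12-lipoxygenase Alox12 1077, the G protein regulator Rgs10 924, the inhibitory receptor G6b 236, and the kinase Prkcq 78.5. The lists of integrin linkage, G protein and erythroid genes had 25, 16 and 29 other tested genes, and none passed the edgeR test in any comparison. The other genes of these lists were counted in a median of 11, 9 and 6 libraries.

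The cytoskeletal members were led by Sh3bgrl3, a small thioredoxin-like protein (chr4:134127406-134128789). It had 2176, 3719 and 5257 CPM in WT-derived, 635, 1922 and 3427 in dystrophic-derived and 190, 1511 and 2802 in hypertrophic-derived libraries. Vim, the intermediate filament vimentin (chr2:13573927-13582826), had 839, 1347 and 784 CPM, then 3.96, 2710 and 5371 CPM and 333, 617 and 1036 CPM. Of the dystrophic-derived libraries, 4 of 6 exceed every hypertrophic-derived one, and dystrophic replicate 4 holds 6 reads. Gas2l1, which links actin and microtubules, had 682, 731 and 251 CPM in WT-derived, 262, 397 and 1614 in dystrophic-derived and 815, 1309 and 1796 in hypertrophic-derived libraries. All hypertrophic-derived libraries lie above the WT-derived ones. Cnn2, calponin 2, was among the steadiest members, with 524, 655 and 201 CPM, then 584, 695 and 1293 CPM and 191, 928 and 1147 CPM.

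Rcsd1, an actin capping regulator, had the largest spread of all members, a SD of 3.96 on the log2 scale. Its values were 472, 75.5 and 9.56 CPM in WT-derived, 0.262, 19.3 and 285 in dystrophic-derived and 0.198, 22.6 and 684 in hypertrophic-derived libraries, and it had 1 read in 3 libraries. Rhoc had 52.4, 10.8 and 21.5 CPM, then 0.410, 16.3 and 315 CPM and 0.793, 15.8 and 169 CPM. Its 52.4 CPM in WT replicate 1 rests on 2 reads. The adhesion protein Zyx (zyxin) had a median of 1607 CPM, Arhgdib 1198, the GTPase Rac1 1184, the actin binder Tagln2 1057, the LIM protein Fhl1 570, the tubulin Tuba4a 447, the integrin linker Tln1 (talin) 443, Sh3bgrl2 431, the Arp2/3 subunit Arpc3 345, and Rhoj 98.5. The lists of actin regulators and tubulins had 27 and 14 other tested genes, and none passed the edgeR test in any comparison.

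Among genes of transcription, growth and survival, Tsc22d1, a leucine zipper factor induced by TGF-beta (chr14:76414961-76507765), had 4064, 10412 and 6830 CPM in WT-derived, 913, 5479 and 12327 in dystrophic-derived and 5636, 6206 and 11340 in hypertrophic-derived libraries. The hypertrophic-derived values lie closer together than the dystrophic-derived ones. Dap, a death-associated protein (chr15:31224314-31274341), had 2124, 2773 and 2446 CPM, then 589, 1806 and 3297 CPM and 541, 1916 and 2071 CPM. Every hypertrophic-derived library lies below the WT-derived ones. Dusp1, a stress-induced phosphatase of MAP kinases (chr17:26505590-26562128), had 367, 67.9 and 23.9 CPM in WT-derived, 1.05, 93.7 and 141 in dystrophic-derived and 1.19, 2.18 and 12.3 in hypertrophic-derived libraries. All 6 hypertrophic-derived libraries lie below the 3 WT-derived ones, which hold 14, 376 and 10 reads, and 5 of the 6 hold 1 to 8 reads.

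Epas1, the hypoxia factor HIF-2 alpha, had 26.2, 0.722 and 4.78 CPM in WT-derived, 0.524, 98.6 and 270 in dystrophic-derived and 0.594, 2.09 and 234 in hypertrophic-derived libraries. Akt2, an insulin-responsive kinase, had 52.4, 306 and 16.7 CPM, then 1.05, 168 and 309 CPM and 1.51, 55.3 and 360 CPM. Nsd1, a histone H3 methyltransferase, had 131, 1.08 and 28.7 CPM, then 0.524, 21.7 and 185 CPM and 0.792, 2.70 and 139 CPM. These 3 genes were at 20 reads or fewer in 8, 6 and 10 of the 14 libraries. In WT replicate 1 their values rest on 1, 2 and 5 reads. Zfand3, the cyclin Ccni, the apoptosis inhibitor Birc2 and Ptms (parathymosin) had medians of 656, 425, 255 and 106 CPM. The list of immediate early and growth genes had 17 other tested genes, and none passed the edgeR test in any comparison.

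Of the leukocyte genes, Mmd had a median of 1541 CPM, Lyz2, the lysozyme of myeloid cells, 1170, Alox5ap, which serves leukotriene synthesis, 807, the phosphatase Ptpn18 723, Plac8 419, the lysosomal protein Laptm5 280 and Ptprc, the pan-leukocyte surface protein CD45, 78.6. Lyz2 and Ptpn18 kept above 20 reads in the 14 libraries, while Ptprc was low in 6 of them. The leukocyte and endolysosome lists had 24 and 26 other tested genes, and none passed the edgeR test in any comparison.

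Of the metabolic enzymes, Taldo1, transaldolase of the pentose phosphate pathway (chr7:141392199-141402968), was steady, with 786, 1734 and 1762 CPM in WT-derived, 416, 1094 and 3379 in dystrophic-derived and 1137, 1919 and 2407 in hypertrophic-derived libraries. Aldh2, the mitochondrial aldehyde dehydrogenase, had 891, 2327 and 2.39 CPM, then 0.262, 775 and 1277 CPM and 408, 941 and 1554 CPM. It was at 1 read in WT replicate 3 and dystrophic replicate 3 and at 404 CPM or more in the 13 others. Odc1, the rate-limiting enzyme of polyamine synthesis, had a median of 918 CPM, the esterase Esd 707, the glycolytic enzyme Tpi1 362, the spermine oxidase Smox 144 and Gbas 73.8. The list of antizyme and polyamine genes had 7 other tested genes, and none passed the edgeR test in any comparison.

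Of the genes of membranes, folding and trafficking, March2, a membrane-bound ubiquitin ligase (chr17:33685692-33718670), had the smallest spread of all members, a SD of 0.59 on the log2 scale. It had 3225, 3114 and 1150 CPM in WT-derived, 890, 2105 and 3739 in dystrophic-derived and 1135, 1689 and 2364 in hypertrophic-derived libraries. Nptn, the adhesion protein neuroplastin (chr9:58582240-58657955), had 1416, 3517 and 736 CPM, then 671, 1499 and 4171 CPM and 460, 2013 and 5125 CPM. Plekha5, a phosphoinositide-binding protein, had 236, 3.25 and 47.8 CPM, then 2.08, 2.76 and 16.1 CPM and 1.39, 5.38 and 92.2 CPM. It was at 20 reads or fewer in 12 of the 14 libraries, the most of any member, and reached 333 and 465 reads in dystrophic replicate 6 and hypertrophic replicate 6. Its 236 CPM in WT replicate 1, the highest of its values, rests on 9 reads. Cyclophilin A (Ppia) had a median of 1285 CPM, the annexin partner S100a10 644, Fgfr1op2 633 and the reticulon Rtn3 278. The lists of cyclophilins and of calcium sensors had 6 and 19 other tested genes, and those of the ER translocon, ER folding, mitochondrial carriers, redox enzymes and vesicle coats, which hold no member, had 21, 8, 26, 21 and 23. None of these genes passed the edgeR test in any comparison.

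**Figure D4:**
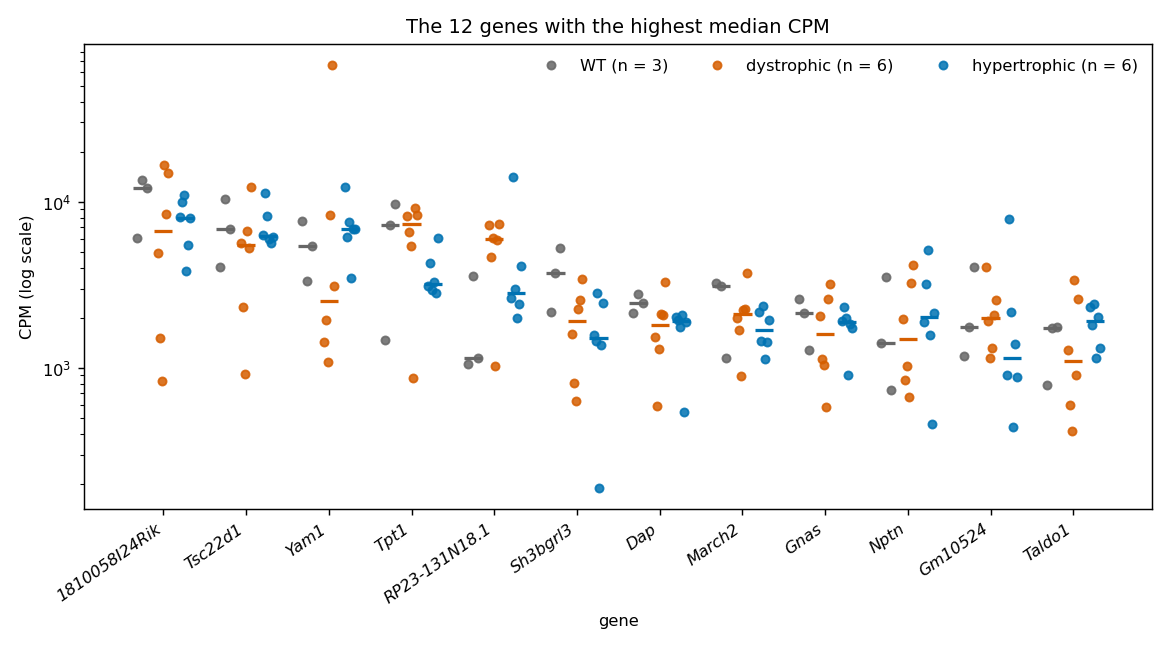
CPM (y axis, log scale) of the 12 members with the highest median, 1 point per library, grouped by condition; short lines are the medians. The 3 conditions overlap for 11 of the 12 genes in every pairing, the exception being Dap, and Yam1 reaches 66450 CPM in dystrophic replicate 5.

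The dystrophic-derived libraries were compared with the WT-derived ones to ask which members differ in dystrophy. By edgeR's quasi-likelihood test with Benjamini-Hochberg adjustment over 6887 genes, no member passed an adjusted p of 0.05, against 0.0145% of all tested genes, and the smallest adjusted p of a member was 0.433. At an unadjusted p under 0.05, 2 members were higher (background 1.55%) and 0 lower (0.465%). These were Yam1, with a log2 fold change of 1.33 ± 0.52 (SE; adjusted p = 0.433 by edgeR), and RP23-131N18.1, with 1.48 ± 0.74 (adjusted p = 0.433 by edgeR). The value of Yam1 rested on dystrophic replicate 5: without it the log2 fold change was -0.60, and with the condition exchanged for the 6 libraries of crossed numbers it was -0.11. Next came Plekha5 (-4.12 ± 3.34), Nfe2 (-2.16 ± 1.81) and Vim (1.34 ± 1.16). Plekha5 was at -2.22 without WT replicate 1 and 0.74 without the 4 shallowest libraries, and Vim was at -0.27 with limma. Nfe2 was at -1.16 without WT replicate 3 and -3.35 without dystrophic replicate 6. DESeq2 called 0 members against a background of 19.1%, with a smallest adjusted p of 0.0501 among members by DESeq2. limma called 0 against 0.0145%.

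The median log2 fold change of the 69 genes was -0.01, with 34 above 0 and 35 below, beside 1.38 over all genes tested. The latter includes genes with counts of 0, which the rule keeps out of the members, so the 2 medians are not of like genes. P2ry12 was the 1 member whose libraries did not overlap between these conditions, lower in dystrophic-derived libraries (background 0.232% lower and 0.348% higher), at -1.14 ± 1.24 (adjusted p = 0.816 by edgeR), and at -0.75 without dystrophic replicate 2. The summed platelet markers had a median of 45653 CPM in WT-derived and 20822 CPM in dystrophic-derived libraries, and their part in this value was not tested. The number of such members was 0 without any of dystrophic replicates 1, 2 and 5 or hypertrophic replicates 1, 2 and 6. It was 2 without dystrophic replicate 4, 3 without WT replicate 1 and 5 without WT replicate 2 or dystrophic replicate 6. A gene at 0 in a WT-derived library cannot be counted as lower, and WT replicate 1 had reads on 797 genes only. The background for such members is therefore not of like genes.

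The hypertrophic-derived libraries were compared with the same WT-derived ones for muscle growth. No member passed an adjusted p of 0.05 by edgeR, against 0.029% of all tested genes, with a smallest adjusted p of 0.430 among members. At an unadjusted p under 0.05, 0 members were higher (background 1.67%) and 0 lower (6.35%). The smallest p-values belonged to RP23-131N18.1 (log2 fold change 1.28 ± 0.73), Dusp1 (-5.13 ± 3.15), Sh3bgrl3 (-1.18 ± 0.90), Fau (-1.63 ± 1.26) and Tpt1 (-0.71 ± 0.62). RP23-131N18.1 was at 0.58 without hypertrophic replicate 2 and 2.0 without WT replicate 2, and Dusp1 at -3.42 without WT replicate 1. Without WT replicate 3, Fau was at -0.75 and Tpt1 at -0.22, and without WT replicate 1 Tpt1 was at -1.18. DESeq2 called 1 member, Dusp1, lower at -4.97 ± 1.69 (adjusted p = 0.0145 by DESeq2), beside a background of 22.2%, whereas edgeR gave Dusp1 an adjusted p of 0.430. limma called 0 members, against 0.029%.

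The median log2 fold change was 0.03, with 35 members above 0 and 34 below, beside 0.66 over all genes tested. With DESeq2 the median of the members was 0.29, with 46 above 0 and 23 below, so the near-even split rests on the scaling. The libraries did not overlap for 1 member that was higher in hypertrophic-derived libraries, Gas2l1 (1.28 ± 1.40, background 0.102%), and for 4 that were lower (background 0.421%). The 4 were Dusp1, P2ry12 (-1.08 ± 1.24), 1110032A03Rik (-1.30 ± 1.74) and Dap (-0.52 ± 0.96), with adjusted p from 0.430 to 0.957 by edgeR. Dap was at -0.33 without hypertrophic replicate 5 and at -0.29 without dystrophic replicate 1, 2 or 5. Both comparisons share the 3 WT-derived libraries, so the values of P2ry12 are not independent of each other. In place of 5, the number of such members was 1 without any of dystrophic replicates 1, 2 and 5 or hypertrophic replicates 1, 2 and 6, 9 without WT replicate 2 and 13 without WT replicate 1. Without TMM, 1 member was higher and 1 lower, so most of the 4 lower ones rest on the scaling. A gene at 0 in WT replicate 1, which had reads on 797 genes, cannot be counted as lower. Neither this background nor the median over all genes is therefore of like genes.

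The hypertrophic-derived and dystrophic-derived libraries, 6 of each, were then set against each other. By edgeR no member passed an adjusted p of 0.05, against 0.0145% of all tested genes, and the smallest adjusted p of a member was 0.193. At an unadjusted p under 0.05, 0 members were higher (background 0.566%) and 2 lower (11.4%), namely Yam1 (-0.93 ± 0.40, adjusted p = 0.193 by edgeR) and Vim (-1.94 ± 0.92, adjusted p = 0.302 by edgeR). Without dystrophic replicate 5 the value of Yam1 was 1.35. Tpt1 (-0.78 ± 0.52), Dusp1 (-4.19 ± 2.84) and Prkar2b (1.83 ± 1.25) followed. DESeq2 called 0 members (background 4.69%), and limma 0 (0.0145%).

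The median log2 fold change was 0.07, with 37 members above 0 and 32 below, beside -0.52 over all genes tested. Without TMM the median of the members was 0.33, with 48 above 0 and 21 below, so the near-even split rests on the scaling. No member had libraries that did not overlap (background 0% higher and 0.116% lower), and 1 had without dystrophic replicate 6. With the condition exchanged for the 6 libraries of crossed numbers, the log2 fold changes of Yam1, Vim, Dusp1 and Prkar2b were 1.65, 0.63, 0.31 and -0.64, each of the opposite sign.

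**Figure D5:**
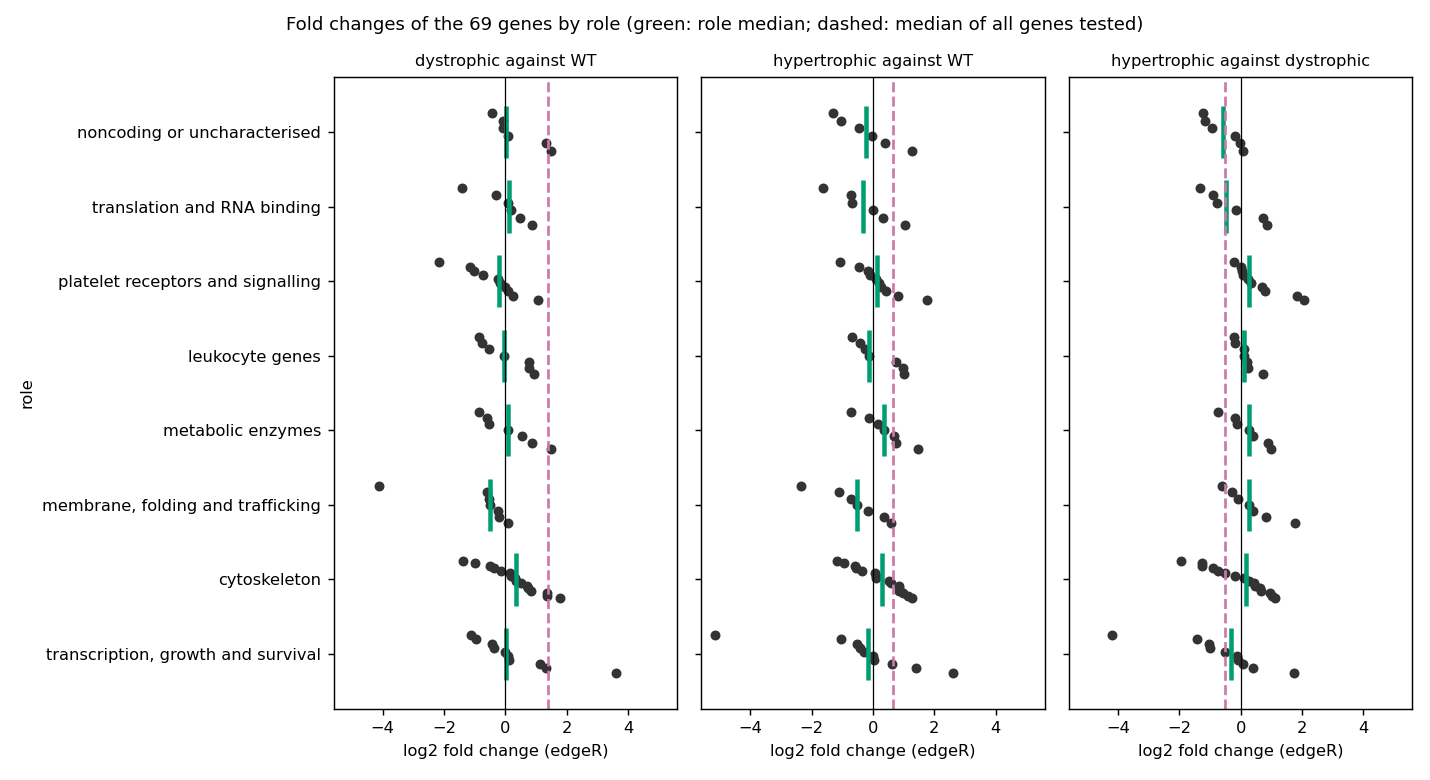
log2 fold changes (x axis, edgeR) of the 69 genes by role (y axis) in the 3 comparisons, 1 point per gene; green lines are role medians and the dashed line is the median of all genes tested. Role medians lie between -0.56 and 0.36, and Dusp1, Plekha5 and Epas1 are the points farthest from 0.

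By role, no group had a member past the threshold by edgeR in any comparison. Role medians of the log2 fold change ran from -0.49 (membrane genes) to 0.33 (cytoskeletal genes) for dystrophic against WT and from -0.51 (membrane genes) to 0.36 (metabolic enzymes) for hypertrophic against WT. Between the hypertrophic-derived and dystrophic-derived libraries they ran from -0.56 (noncoding) to 0.28 (platelet genes). For the latter, 9 of 10 platelet genes were above 0, beside 37 of all 69 members. The 10 values ran from -0.21 ± 0.99 (SE, Rgs10) to 2.07 ± 1.59 (Nfe2), with Gnas at 0.01 ± 0.81. Rap1b and P2ry12 were also near 0, at 0.04 ± 0.82 and 0.07 ± 1.04. Nfe2 is held by the list of erythroid genes, and members outside the lists were given a role after the members were known. The count of 9 therefore does not show a shared direction of platelet genes. The summed platelet markers had medians of 36428 CPM and 20822 CPM in these conditions. The part of the platelet content in the count of 9 was not tested.

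The 20 pathway lists hold 412 symbols of the files, of which 27 are members and 350 others were tested. None of the 350 passed an adjusted p of 0.05 by edgeR in any comparison. At an unadjusted p under 0.05, 10 of them (2.86%, background 1.55%) were higher and 1 (0.286%, background 0.465%) lower in dystrophic-derived against WT-derived libraries. For hypertrophic against WT, 8 (2.29%, background 1.67%) were higher and 7 (2.0%, background 6.35%) lower. For hypertrophic against dystrophic, 1 (0.286%, background 0.566%) was higher and 16 (4.57%, background 11.4%) lower. By DESeq2, 12.3%, 12.6% and 2.29% of the 350 had an adjusted p under 0.05 in the same order, below the backgrounds of 19.1%, 22.2% and 4.69%. limma called 0 of them in each comparison.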

How the data were processed

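The authors deposited raw counts, whole reads per gene symbol, for each of the 15 libraries. According to the paper and the submitters' processing notes, 50-base single reads were aligned with TopHat to mm10, and HTSeq and DESeq are also named. The annotation and the strand setting of the counting are not given in the sources used here. Labels and paper differ on serum or plasma, library kit and sequencer. The 5 summary lines of each file, 57.9% to 99.2% of its numbers, name no gene and were left out. No 2 libraries had identical counts.

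Groups came from the labels. edgeR 4.0.16 (R 4.3.3) used TMM, filterByExpr and a quasi-likelihood fit over all 15 libraries without covariates, which left 6887 genes and all 69 members, with an adjusted p under 0.05 as the threshold and standard errors from the F statistic. The common biological coefficient of variation was 3.04. DESeq2 1.42.0 was an alternative, and limma 3.58.1 (log2 CPM, prior count 2) and the exclusion of the 4 shallowest libraries were added after seeing the data. The study's DESeq was not run. DESeq2 gave no adjusted p to 645 genes, which count as not called. Low counts in shallow libraries are imprecise, and amplified reads are not independent molecules.

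Positions, lengths and shared 50-base stretches came from GENCODE M21. Values per library are given for the 12 members with the highest median CPM, the 5 smallest p-values per comparison, the 5 smallest and 5 largest SDs of log2 CPM, the 5 with the lowest smallest count, and members whose libraries did not overlap. Of genes with a tied lowest count, those with the smaller median count were taken. The members, roles and lists were chosen with earlier results of these data known. The result of 1 of the 20 lists is not reported on its own here.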

Additional observations from a re-analysis of the deposited data

Results flagged for a closer look

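Within each condition of 6 libraries, the highest and lowest library were compared with the others by Dixon's ratio, for 29 members on the log2 CPM scale and for the share of reads taken by all members. In 60 groups of 6, this picked out 16 values. The ratio picks out about 1 in 20 groups by chance where genes are not chosen for their spread. These members were named partly for large SDs, low smallest counts or libraries that do not overlap, so the number of values is a description and no test.

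In dystrophic replicate 4, Tpt1 (9.76, next lowest library 12.39), RP23-131N18.1 (10.002, next 12.18) and Vim (1.99, next 8.74) were the lowest of their group, and Cnn2 (10.34, next 9.55) was the highest. In hypertrophic replicate 4, Sh3bgrl3 (7.57, next 10.41), Gnas (9.83, next 10.76), Prkar2b (0.28, next 9.59), Cnn2 (7.58, next 9.44) and P2ry12 (0.28, next 9.10) were the lowest. In hypertrophic replicate 5, Dap (9.08, next 10.79), Fau (1.81, next 7.65) and Snap23 (1.81, next 9.06) were the lowest. The other 4 were Aldh2 in dystrophic replicate 3 (lowest, -1.93, next 8.66), Prkar2b in dystrophic replicate 6 (highest, 9.79, next 7.88), RP23-131N18.1 in hypertrophic replicate 2 (highest, 13.78, next 12.005) and Plekha5 in hypertrophic replicate 6 (highest, 6.53, next 2.60). Hypertrophic replicates 4 and 5, which hold 8 of the 16 values, had 451013 and 328710 reads. The part of depth in these values was not tested.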

How the results depend on the processing

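No paired analysis was possible because the replicate numbers follow the accession order and mark no shared mouse, batch or day. No member was called by edgeR under any alternative, each left-out library included (range 0 to 0), and the 1 call by DESeq2, in hypertrophic against WT, was Dusp1. Over all genes edgeR called 1, 2 and 1 in dystrophic against WT, hypertrophic against WT and hypertrophic against dystrophic, and DESeq2 1315, 1528 and 323. The median log2 fold change of the members moved under every alternative by less than 0.70. That limit is the SD between libraries of a condition of the members' median deviation from each gene's mean log2 CPM in the condition. It is wide beside medians of -0.01, 0.03 and 0.07, and it is not the spread of a median fold change. The largest moves were to -0.63 and -0.43 with only the 9 libraries of matching numbers, for dystrophic and hypertrophic against WT, and to 0.34 for hypertrophic against dystrophic without the 4 shallow libraries. With a library left out it was -0.28 to 0.19 for dystrophic against WT, -0.03 to 0.31 for hypertrophic against WT and -0.11 to 0.26 for hypertrophic against dystrophic. Without TMM the median over all genes was 1.57, 1.02 and -0.37 in these comparisons, and that over the members -0.11, 0.24 and 0.33. The members above and below 0 were then 29 and 40, 40 and 29, and 48 and 21. With DESeq2 the medians of the members were -9.1e-05, 0.29 and 0.31. The members above and below 0 were 34 and 35, 46 and 23, and 49 and 20 by DESeq2. The number of members whose libraries do not overlap was 1, 5 and 0. It became 3, 5 and 1 with DESeq2's scaling, 2, 2 and 0 without TMM, 0, 1 and 0 without a filter, 2, 1 and 0 with exchanged conditions, 12, 8 and 12 with only the 9 libraries of matching numbers, and 9, 25 and 1 without the 4 shallow libraries, where WT keeps 1 library that is assumed to vary like the others. With a library left out it was 0 to 5, 1 to 13 and 0 to 1. Fewer libraries per condition make separation easier. Without mitochondrial and hemoglobin genes in the total, the share of reads was 10.5% (WT), 9.15% (dystrophic) and 10.9% (hypertrophic). With a library left out it was 6.71% to 8.56%, 6.52% to 7.70% and 8.68% to 9.50% in WT-derived, dystrophic-derived and hypertrophic-derived libraries.

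Of 240 alternative fold changes of the named members, leaving out single libraries aside, 226 kept their sign and 14 did not. For dystrophic against WT, Yam1 was -0.11 with exchanged conditions, -1.90 with the 9 libraries, -0.26 with the title number series as a covariate and -0.32 with limma. Vim was -0.27 with limma, and Plekha5 was 0.74 without the 4 shallow libraries. For hypertrophic against dystrophic, Yam1 was 1.65, 1.95, 0.18 and 0.70 in the same 4 alternatives, and with exchanged conditions Vim was 0.63, Tpt1 0.00073, Dusp1 0.31 and Prkar2b -0.64. Without dystrophic replicate 5, Yam1 was -0.60 and 1.35, the ends of ranges from -0.60 to 1.86 and from -1.17 to 1.35 over the left-out libraries. The cause was not tested.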
